A study of Mus musculus with 18 samples.

Results

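The regions described here were the intergenic distal KDM2A sites of WT splenic B cells, 805 of the 14979 KDM2A sites in these cells. They were chosen by KDM2A peak calls in WT. Peaks of the 3 WT KDM2A lists on chromosomes 1 to 19 that shared 1 bp or more were joined, which gave 52239 intervals, and the 14979 intervals with a peak in at least 2 of the 3 lists were taken as sites. A site was intergenic distal when its centre lay outside every gene of GENCODE M21 and more than 10 kb from any transcription start site (TSS). The other sites served for comparison. They were 10166 promoter sites with the centre within 2 kb of a TSS, 871 intragenic distal sites with the centre in a gene but more than 10 kb from a TSS, and 3137 sites that fell in none of these classes. WT mice carried Mir155 and KO mice lacked it, both on a C57BL/6J background, and the B cells were enriched from spleen by removing cells that bore CD43, Ter119 or CD4. All cells of both genotypes had been cultured for 2 days in 1% oxygen with anti-CD40 (1 µg/ml), an anti-IgM fragment (5 µg/ml) and IL-4 (4 ng/ml). KDM2A and H3K36me2 were each immunoprecipitated in 3 libraries per genotype, and replicate 1 was male and replicates 2 and 3 were female in every group. Loss of Mir155 affects every cell of these mice, and the lists hold no expression values, so the B cell label was taken as given. KDM2A lists held 23138 to 29016 peaks in WT and 15241 to 21483 in KO, and H3K36me2 lists 85274 to 93535 in WT. In KO the H3K36me2 list of replicate 1, the male, stood apart with 106528 peaks, where replicates 2 and 3 had 37254 and 44982. Read depth behind the lists is unknown.

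KDM2A is a demethylase that removes the dimethyl mark from lysine 36 of histone H3. It carries a CXXC zinc finger that binds unmethylated CpG, and it is therefore known above all at CpG islands, the CpG-rich stretches that most often mark promoters. H3K36me2 is laid down by NSD family enzymes over genes and over wide stretches between them. Enhancers, insulators and unannotated promoters lie in the same intergenic space.

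Most of the intergenic distal sites were not CpG-rich, and the sequences printed here were picked to show members with many, few and no CpG. An island was present at 63 of the 805 members, or 7.83% (5.84% to 16.4% under other rules for members or islands), against 76.4% of promoter sites, 3.10% of intragenic distal sites and 0.0365% of the 500 bp windows that tile intergenic distal sequence. The 500 bp around a member's centre held a median of 6 CpG, against 33 at promoter sites, 7 at intragenic distal sites and 3 in the windows. GC content over the same 500 bp had a median of 50.4% at members, 61.0% at promoter sites and 40.2% in the windows. The sequences below are the plus strand of GRCm38.p6 from RefSeq, with CpG in capitals in the first 3. The first 2 are the centres of the member of highest WT fold, which touches a small island downstream of Cmtm6, and of a member whose island lies near Zfp239. The third comes from the stretch downstream of Igha.

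Cmtm6 site, chr9:114752350-114752649: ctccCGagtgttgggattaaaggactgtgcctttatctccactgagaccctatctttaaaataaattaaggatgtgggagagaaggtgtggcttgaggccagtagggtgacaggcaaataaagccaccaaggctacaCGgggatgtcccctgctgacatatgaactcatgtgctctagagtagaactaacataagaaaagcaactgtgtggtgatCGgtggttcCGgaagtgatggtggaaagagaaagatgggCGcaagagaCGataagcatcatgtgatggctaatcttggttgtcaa

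Zfp239 site, chr6:117879470-117879769: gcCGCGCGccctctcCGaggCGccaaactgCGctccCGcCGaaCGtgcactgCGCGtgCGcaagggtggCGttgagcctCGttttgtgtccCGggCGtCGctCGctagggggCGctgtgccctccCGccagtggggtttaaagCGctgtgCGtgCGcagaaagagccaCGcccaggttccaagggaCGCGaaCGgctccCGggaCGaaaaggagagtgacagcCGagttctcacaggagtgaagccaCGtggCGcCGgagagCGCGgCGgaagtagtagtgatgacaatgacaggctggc

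Igha site, chr12:113236829-113237128: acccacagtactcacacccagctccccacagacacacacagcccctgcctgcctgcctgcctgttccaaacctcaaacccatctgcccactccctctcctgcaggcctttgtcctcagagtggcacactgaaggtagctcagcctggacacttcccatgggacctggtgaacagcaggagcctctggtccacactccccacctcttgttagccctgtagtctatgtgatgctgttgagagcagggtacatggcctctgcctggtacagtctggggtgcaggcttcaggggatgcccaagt

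The Zfp239 sequence held 36 CpG in 300 bases, and the site lay 13 bp from a RefSeq TSS of Gm38883, a gene model that GENCODE M21 does not place there. The Cmtm6 sequence held 6 CpG and the Igha sequence 0. The member of second highest WT fold, downstream of Ankrd12, held 1 CpG in its central 300 bases. It consisted of a short unit repeated many times, shown here with each match to TGANTCA, the letters bound by AP-1 factors such as Fos and Jun, in capitals.

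Ankrd12 site, chr17:65961675-65961974: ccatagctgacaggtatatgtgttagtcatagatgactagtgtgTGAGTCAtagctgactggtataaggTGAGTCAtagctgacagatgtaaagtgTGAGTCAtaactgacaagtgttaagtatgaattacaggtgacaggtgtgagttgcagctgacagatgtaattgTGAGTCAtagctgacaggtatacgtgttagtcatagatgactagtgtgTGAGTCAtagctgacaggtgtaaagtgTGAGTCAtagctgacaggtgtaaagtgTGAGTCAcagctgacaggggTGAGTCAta

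The whole Ankrd12 member, 837 bp long, held 17 matches, and no other member held more than 6. At least 1 match lay in 327 of the 805 members, and the overall density was 0.389 matches per kb. The letters read the same on both strands, so each match was counted once.

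KDM2A fold, the authors' ratio of ChIP signal over local control for the strongest peak in a site, was moderate at most members. These WT values chose the members and are given as a description. The mean WT fold of a member had a median of 2.76 and ran from 1.35 to 4.47. Promoter sites had a median of 2.99 and intragenic distal sites 2.73. A peak was present in all 3 WT lists at 301 members (37.4%) and in 2 lists at the other 504. Members were a median of 1258 bp wide, with a range from 243 to 8267 bp. The distance to the nearest TSS had a median of 18027 bp, and 342 members (42.5%) lay more than 20 kb and 46 more than 50 kb away. The member just inside the 10 kb limit was 10004 bp from the TSS of Il12rb1, with a mean WT fold of 2.81. The sites just outside it were 9967 bp from the TSS of Pltp and 9963 bp from that of Iscu, with mean WT folds of 2.82 and 3.03.

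A peak was present in all 6 KDM2A lists at 100 members (12.4%), where 34.8% of all WT sites had this pattern. The 6 of highest mean WT fold among the 100 are given here. The Cmtm6 site had folds of 3.99, 4.47 and 4.93 in WT and 4.86, 3.90 and 4.05 in KO. The groups overlapped there. The Ankrd12 site had folds of 4.02, 3.09 and 6.15 in WT and 3.40, 6.41 and 5.61 in KO, the widest spread among the 6 strongest of these members. Rps6ka1 encodes a kinase of the growth factor pathway, and the site 18.9 kb downstream of its TSS had folds of 4.04, 5.14 and 3.34 in WT and 3.12, 3.88 and 3.81 in KO. The Zfp239 island had folds of 3.58, 4.32 and 4.25 in WT and 3.67, 3.28 and 2.51 in KO. A site 19.1 kb upstream of B4galt5, a galactosyltransferase gene, had folds of 3.21, 4.48 and 3.99 in WT and 3.02, 2.85 and 3.20 in KO. All 6 sites were named for their WT fold, which favours higher values in WT. A site 6259 bp from an assembly gap, whose nearest coding gene was Pdia4, had folds of 3.82, 4.79 and 2.72 in WT and 3.49, 2.72 and 3.55 in KO.

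**Figure D1:**
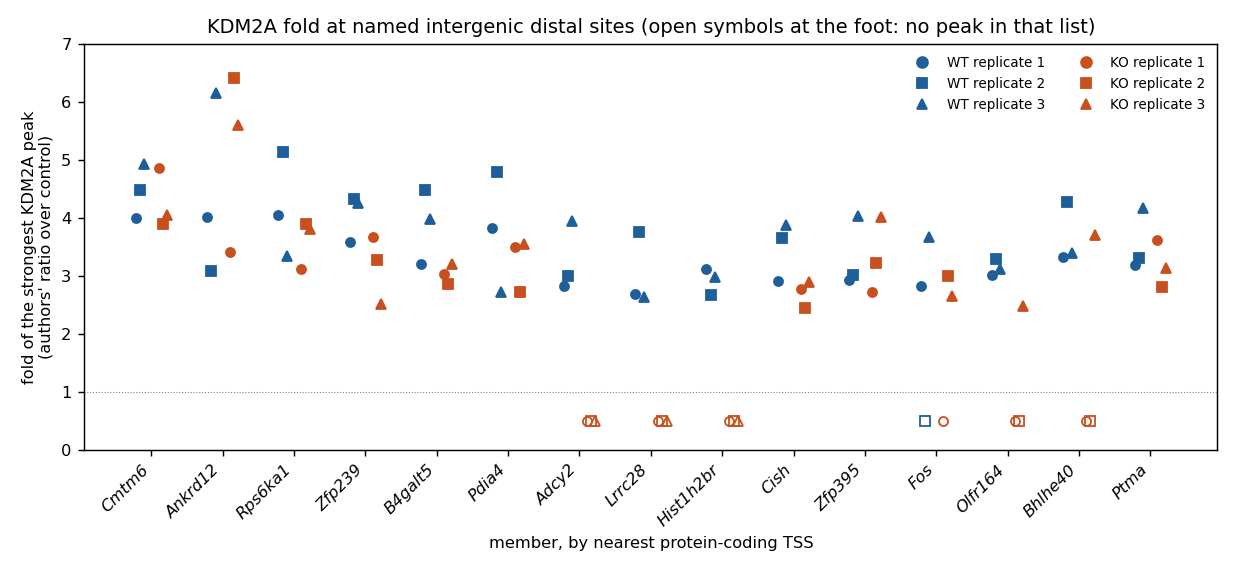
Fold of the strongest KDM2A peak (vertical axis, the authors' ratio over control) in each library at named members, labelled by the nearest protein-coding TSS. WT libraries are blue and KO libraries orange, and an open symbol at the foot marks a library without a peak; the sites at Adcy2, Lrrc28 and Hist1h2br have no KO peak by the rule that named them.

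Adcy2, Lrrc28 and Hist1h2br were the nearest coding genes of strong members with a peak in all 3 WT lists and in no KO list. This pattern was found at 43 members (5.34%) and at 473 of all 14979 WT sites. The Adcy2 site was 341 bp of repeat sequence along its whole length (100%), with WT folds of 2.83, 3.00 and 3.95. The Lrrc28 site had WT folds of 2.68, 3.75 and 2.64, and the Hist1h2br site, in a cluster of histone genes, 3.12, 2.67 and 2.98. These absences are part of the naming rule and carry no test.

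The members were found in KO lists less often than promoter sites. A peak was present at 34.9%, 29.2% and 47.5% of members in KO replicates 1, 2 and 3. At promoter sites the mean was 70.9% ± 6.01 and at members 37.2% ± 9.34 (SD, n = 3 KO lists), and the difference within a library was -33.7 percentage points, with the same sign in 3 of 3 lists (two-sided exact sign-flip test over lists, p = 0.25, the lowest value possible with 3 lists; 0.25 after Benjamini-Hochberg adjustment over 9 comparisons of classes). Against intragenic distal sites the difference was 7.33 points, with members higher in 3 of 3 lists (exact p = 0.25). All 3 WT lists held a peak at 37.4% of members, 68.4% of promoter sites and 31.1% of intragenic distal sites. The classes were not matched for this. At least 2 KO lists held a peak at 280 members (34.8%), where 60.7% of all WT sites did. No KO list held a peak at 306 members (38.0%), where 20.7% of all WT sites were without one. Since WT calls chose the sites and KO lists were shorter (17448 ± 3500 peaks against 26244 ± 2953 in WT, SD, n = 3 each), lower detection in KO was built into the rule.

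**Figure D2:**
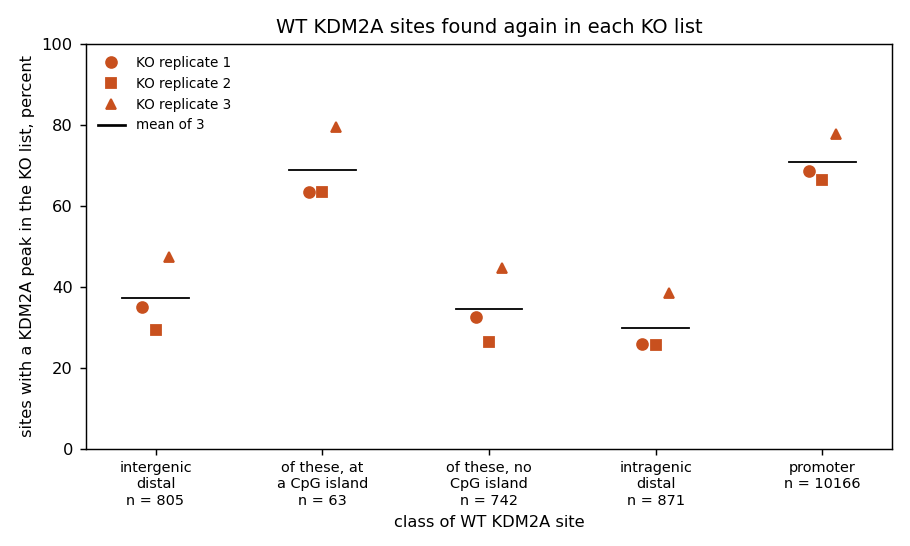
Percent of WT KDM2A sites with a peak in each KO list (vertical axis) by class of site (horizontal axis). Points are the 3 KO libraries and lines their means; members at a CpG island, at 63.5%, 63.5% and 79.4%, sit far above the other members, at 32.5%, 26.3% and 44.7%.

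Detection within a genotype gave the scale for this. Intergenic distal sites with a peak in both of 2 WT lists were found in the remaining WT list in 70.2%, 59.8% and 62.3% of cases, with replicate 1, 2 and 3 held out. The same sites were found in KO lists in 37.8% to 59.2% of cases. The held-out WT list exceeded the mean of the KO lists by 16.9 ± 4.10 points (SD over 3 choices of list). Sites taken from 2 KO lists behaved the other way round, since the remaining KO list held 49.8%, 53.1% and 70.5% of them and the WT lists between 67.4% and 82.5%. With the same number of peaks taken from every list, 15241 of highest fold, the WT excess was 3.18 points. The rule applied to KO lists in place of WT lists gave 395 sites. Of these 260 (65.8%) touched a member, and they touched 252 members (31.3%).

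**Figure D3:**
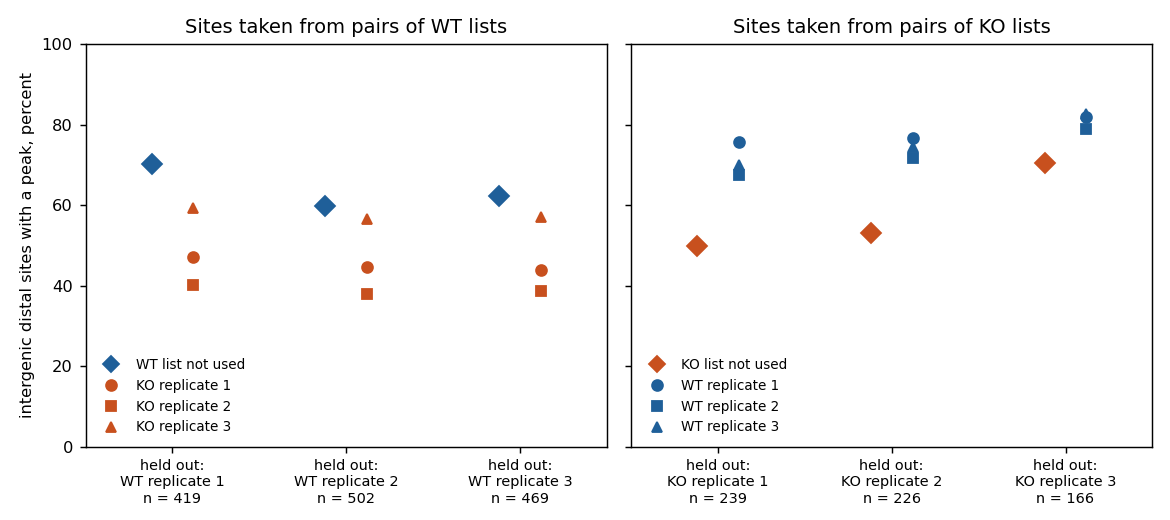
Percent of intergenic distal sites, taken from 2 lists of a genotype, with a peak in the list not used (diamonds) and in the lists of the other genotype (other symbols). Sites from WT pairs were found more often in the held-out WT list and sites from KO pairs more often in the WT lists.

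Counted by position alone, without any choice of sites, the KDM2A lists held 3391, 2189 and 3110 intergenic distal peaks in WT and 1209, 1319 and 2299 in KO. The groups overlapped (two-sided exact permutation test, p = 0.2, n = 3 each). The share of all peaks that was intergenic distal averaged 10.9% ± 1.29 over WT lists and 9.03% ± 1.52 over KO lists (SD, n = 3 per genotype; exact permutation p = 0.2). When every list was cut to its 15241 peaks of highest fold, the difference, KO minus WT, was 29.3 peaks in place of -1288, and 0.19 points in place of -1.92.

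Where both genotypes had peaks, no difference in fold passed the test. In 5236 intervals with a peak in each of the 6 KDM2A lists, limma with Benjamini-Hochberg adjustment called 0 intervals (0% of those tested), and the smallest adjusted p was 0.899 (0.762 to 0.999 under the alternatives). Members lay in 107 of these intervals. Their difference in centred log2 fold, KO minus WT, had a median of 0.03, against 0.00 over all intervals, and ran from -0.36 to 0.34, and the SE of a difference had a median of 0.118 over all intervals. At an unadjusted limma p under 0.05, 4 member intervals were higher in KO and 7 lower, where 3.13% and 2.18% of all intervals were. On the centred scale every KO library lay above every WT library in 9 member intervals and below in 8, where 5.42% and 5.21% of all intervals did. The lowest of the differences, -0.36, was at a site 18.5 kb upstream of Fos, an AP-1 gene, that overlaps an element of the VISTA enhancer catalogue. Its folds were 2.82, 3.20 and 4.45 in WT and 2.70, 2.62 and 2.37 in KO (limma, unadjusted p = 0.0167, adjusted p = 0.899).

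H3K36me2 covered the members more widely than promoter or intragenic distal sites. An H3K36me2 peak touched 73.8%, 72.2% and 75.03% of members in WT replicates 1, 2 and 3, and 67.7%, 38.3% and 41.5% in KO. In every library the share exceeded that at promoter sites, by 36.3 ± 4.05 points, and that at intragenic distal sites, by 19.2 ± 1.07 points (SD over libraries; two-sided exact sign-flip test over 6 libraries, p = 0.03125 for both, the smallest p it can give; 0.0469 after Benjamini-Hochberg adjustment over 9 comparisons). By bases, 59.9% ± 0.832 of member sequence lay under H3K36me2 peaks in WT and 29.0% ± 14.6 in KO (SD, n = 3). At promoter sites these shares were 16.3% ± 0.957 and 5.49% ± 4.79. At least 90% of a member was covered at 331, 350 and 370 members in WT and at 182, 64 and 62 members in KO. All 3 WT lists held a peak at 480 members (59.6%), where 24.6% of all WT sites did, and no WT list held one at 111 members (13.8%), where 40.5% of all sites had none. All 6 lists held a peak at 191 members (23.7%), where 5.31% of all sites did.

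**Figure D4:**
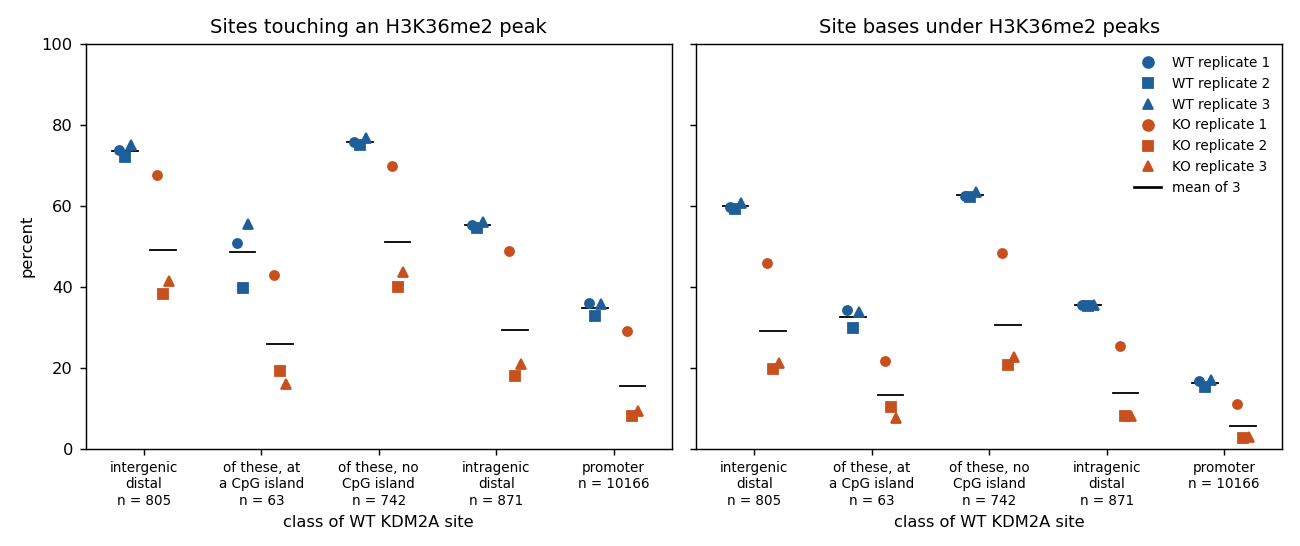
Percent of sites touching an H3K36me2 peak (left) and percent of site bases under such peaks (right), by class of WT KDM2A site. Each point is a library, WT blue and KO orange, and lines are means of 3; every KO library lies below every WT library in both panels for all members, with the male KO library, replicate 1, nearest to WT.

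Between genotypes, the share of members touched by H3K36me2 averaged 73.7% ± 1.43 over WT lists and 49.2% ± 16.1 over KO lists, and every KO list lay below every WT list (SD, n = 3; exact permutation test, two-sided p = 0.1, which is the floor for 3 against 3; 0.2 after Benjamini-Hochberg adjustment over 4 such tests). Covered bases differed by -30.9 points (exact p = 0.1, adjusted 0.2). With every H3K36me2 list cut to its 37254 peaks of highest fold, and KDM2A lists cut likewise, which left 402 members, the differences were -21.9 and -29.99 points (exact permutation p = 0.1 for both, n = 3). The male pair differed by -13.9 points and the female libraries by -39.4 points in covered bases. Of all intergenic distal sequence, WT lists covered 3.80% ± 0.518 and KO lists 1.87% ± 0.847 (SD, n = 3; exact permutation p = 0.1). Coverage of member bases exceeded that of intergenic distal sequence by a factor of 15.96 ± 2.34 in WT lists and of 15.3 ± 1.32 in KO lists (SD, n = 3; exact permutation p = 0.8). The share of members touched, divided in the same way, turned round, with 19.6 in WT and 27.3 in KO (exact permutation p = 0.1, n = 3). That ratio sets members touched against bases covered, which are unlike measures, so no direction is read from it. Intergenic distal sequence as a whole was also covered less in KO. KO replicate 1, with the longest list, covered 45.8% of member bases, and KO replicates 2 and 3, with the shortest, 19.8% and 21.3%, against 59.1% to 60.8% in WT. The part of list length in the difference was not tested beyond the lists of equal length. Fewer cells with the mark and less mark per cell cannot be told apart in such lists, nor can either from lower read depth. A peak in all 3 WT lists and in no KO list was found at 25 members (3.11%), where 3.08% of all WT sites had this pattern, and the opposite pattern at 0 members.

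The strongest of those 25 members lay 13.2 kb downstream of the TSS of Cish, a cytokine-induced inhibitor of signalling. H3K36me2 covered 53.8%, 52.4% and 22.1% of it in WT and 0% in each KO library, and KDM2A folds were 2.91, 3.64 and 3.87 in WT and 2.78, 2.44 and 2.88 in KO. The site was named for its WT fold, so the 2 genotypes are not compared here. A site upstream of Zfp395 was covered over 8.97%, 79.6% and 45.8% in WT. A site 11.7 kb downstream of the Fos TSS was covered over 15.3%, 15.9% and 21.2% in WT. A site that RefSeq places within the Igl locus, the genes of the lambda light chain, was covered over 68.7%, 29.98% and 100% in WT and had a KDM2A peak in 1 KO list, with a fold of 2.48. Among members with H3K36me2 in all 6 lists, the site 25.8 kb downstream of the TSS of Bhlhe40, a transcription factor of activated lymphocytes, was covered over 100% in each WT list and over 50.3%, 4.55% and 100% in KO.

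Members at a CpG island stood apart from the other members in both readouts. In KO lists KDM2A was found at 68.8% ± 9.16 of the 63 island members and at 34.5% ± 9.40 of the 742 others, a difference of 34.3 points with the same sign in 3 of 3 lists (SD, n = 3; exact sign-flip test, p = 0.25). At least 2 KO lists held a peak at 71.4% of island members and 31.7% of the others. H3K36me2 went the other way. It touched 50.8%, 39.7% and 55.6% of island members in WT and 42.9%, 19.05% and 15.9% in KO, against 75.7%, 74.9% and 76.7% and 69.8%, 39.9% and 43.7% of the others. The difference was -26.2 points and had the same sign in 6 of 6 libraries (two-sided exact sign-flip test, p = 0.03125; adjusted over the 9 comparisons, 0.0469). The mean WT fold had a median of 2.95 at island members and 2.74 at the others. All 3 WT lists held a KDM2A peak at 71.4% of island members and 34.5% of the others. At least 2 KO lists held one at 64.1% of members in 3 WT lists and 17.3% of members in 2. Island members and the others were not matched for this. Of the 63 island members, 21 lay within 2 kb of a RefSeq TSS, and 82 of all members (10.2%) did.

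H3K36me2 at the centres was set against H3K36me2 farther out, for members with and without an island separately. Within 500 bp of the centre of island members 21.6% ± 2.18 of bases lay under H3K36me2 peaks in WT, and between 2 and 5 kb away 36.5% ± 3.63 did. In KO the values were 7.11% ± 3.86 and 16.2% ± 8.79 (SD, n = 3). The centre was lower in 6 of 6 libraries, with differences from -16.9 to -4.59 points (two-sided exact sign-flip test, p = 0.03125; 0.0625 after adjustment over the 2 profiles). At members without an island the centre had 59.7% ± 1.08 in WT, against 56.3% ± 2.34 between 2 and 5 kb. The KO values were 27.9% ± 13.8 and 28.8% ± 12.7 (SD, n = 3). The centre was higher in 4 of 6 libraries there (exact sign-flip p = 0.375). The profiles of the 2 sets were not tested against each other. This comparison was chosen after the values were seen, as were the tests of H3K36me2 between classes and of members with against without an island.

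**Figure D5:**
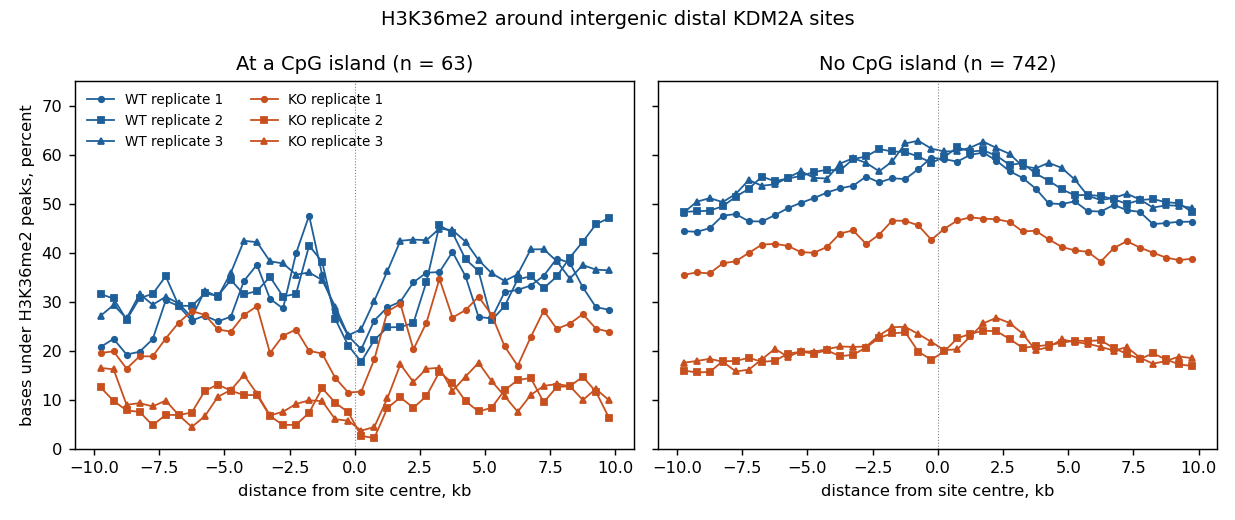
Percent of bases under H3K36me2 peaks (vertical axis) in 500 bp bins out to 10 kb on either side of member centres (horizontal axis, kb), for members at a CpG island and without one. Each line is a library; at islands all 6 libraries are lower within 500 bp of the centre than 2 to 5 kb away, and without an island 2 of 6 are, both KO.

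Many members lay close to another. Of the 805, 363 (45.1%) fell into 127 groups, in which neighbours were at most 12421 bp apart, and 47 groups held 3 or more. The largest groups had 8 members. They lay between Ddit4 and Dnajb12 (chr10:59896284-59939372), between Nfkbia and Psma6 (chr12:55433632-55474389) and between Cryaa and Sik1 (chr17:31721798-31768193). Ddit4 is a stress- and hypoxia-induced inhibitor of mTOR signalling, Nfkbia encodes the NF-kB inhibitor IkBa, and Sik1 encodes a salt-inducible kinase. In these groups 8, 7 and 7 of the 8 members had H3K36me2 in all 3 WT lists, where 78.3% of the members in groups of 3 or more and 59.6% of all members did. Runx3, a Runt transcription factor of lymphocytes, was the nearest coding gene of 11 members, the largest number for any gene, spread from 17525 to 52513 bp from the nearest TSS. At the 11 Runx3 members KDM2A was present at 10, 9 and 9 in WT and 4, 4 and 9 in KO. Of all members, 84.5%, 74.9% and 78.0% had a peak in WT and 34.9%, 29.2% and 47.5% in KO. H3K36me2 covered 92.7%, 83.0% and 85.9% of the Runx3 members' bases in WT and 56.1%, 36.5% and 21.3% in KO. Over all members it covered 59.1% to 60.8% of bases in WT and 45.8%, 19.8% and 21.3% in KO. Sik1 followed with 9 members, Rap1b, a small GTPase gene, with 8, and B4galt5, Cryaa, Ddit4, Gadd45g and Zfp36l1 with 7 each. By chromosome, members per Mb of intergenic distal sequence ran from 0.24 on chromosome 14 to 1.69 on chromosome 11.

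A group of 6 members lay downstream of Igha, the last constant gene of the immunoglobulin heavy chain locus, at chr12:113227673-113249265. This stretch is known to hold the 3' regulatory enhancers of the locus, which act in class switching and in antibody production. CpG was nearly absent from it, with an observed over expected ratio between 0.0181 and 0.0705 in the 6 members, while their GC content was 45.2% to 54.3%. All 6 had H3K36me2 in all 3 WT lists, and it covered 94.5%, 88.5% and 100% of their bases in WT and 66.5%, 42.5% and 39.6% in KO. Over all members, 59.6% had H3K36me2 in all 3 WT lists. It covered 59.1% to 60.8% of all members' bases in WT and 45.8%, 19.8% and 21.3% in KO. KDM2A peaks were present at 4, 6 and 4 of the 6 in WT and at 1, 1 and 4 in KO, where 34.9%, 29.2% and 47.5% of all members had a KO peak. The printed Igha sequence is the centre of the member at chr12:113236079-113237879, which had folds of 2.29, 2.84 and 2.89 in WT, no peak in KO replicate 1, and folds of 2.53 and 2.89 in KO replicates 2 and 3.

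Genes of B cell activation were the nearest coding genes of a few members. The list of CD40, NF-kB and IL-4 pathway genes, 24 in number, had 24 members at 9 genes, or 2.98% of members, and 0.574% of all WT sites were nearest to a gene of the list. These were Tnfaip3 with 5 members, Nfkbia and Cd83 with 4 each, Socs1 and Socs3 with 3 each, Traf1 with 2, and Cd40, Nfkb1 and Traf3 with 1 each. Cd40 encodes the receptor that the culture stimulated, Traf1 and Traf3 adaptors below it, Nfkb1 an NF-kB subunit, Tnfaip3 and Nfkbia inhibitors of the pathway, Socs1 and Socs3 inhibitors of cytokine signalling, and Cd83 a surface protein of activated B cells. KDM2A was present at 21, 20 and 15 of the 24 in WT and at 9, 6 and 12 in KO, and H3K36me2 touched 19, 19 and 18 in WT and 18, 8 and 14 in KO. These counts lay near the shares of all members, since at least 2 KO lists held a peak at 41.7% of the 24 and 34.8% of all members, and H3K36me2 was present in all 3 WT lists at 62.5% and 59.6%. The strongest Cd83 member, chr13:43764363-43769153, had folds of 3.11, 3.34 and 3.27 in WT and 3.19, 3.34 and 3.21 in KO. The genotypes overlapped on this scale, and after centring on each library's median every KO library lay above every WT library in the interval that holds it, as in 5.42% of all intervals (KO minus WT 0.06, SE 0.11, limma adjusted p = 0.983). The Cd40 member had folds of 2.66 and 2.75 in WT replicates 1 and 2, no other KDM2A peak and no H3K36me2 in any list. An island lay at 1 of the 24, near Socs3.

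The list of 20 B cell regulators had 13 members at 6 genes (1.61% of members, 0.701% of all WT sites). They were Foxo1 and Id3 with 4 each, Tcf3 with 2, and Irf4, Bach2 and Mef2c with 1 each. Foxo1, Irf4, Bach2, Mef2c and Tcf3 encode transcription factors of B cell differentiation, and Id3 an inhibitor of the factor that Tcf3 encodes. KDM2A was present at 11, 9 and 10 of the 13 in WT and at 4, 3 and 6 in KO, and 9 (69.2%) had H3K36me2 in all 3 WT lists, where 59.6% of all members did. At least 2 KO lists held a peak at 5 of the 13 (38.5%), close to the 34.8% of all members. The Id3 member of highest WT fold, chr4:136103975-136107623, had folds of 3.52, 3.29 and 2.73 in WT and 2.53, 3.15 and 2.79 in KO. Both Tcf3 members had no H3K36me2 in WT and no KDM2A peak in KO. The hypoxia and glycolysis list had 8 members, 7 of them near Ddit4 and 1 near Vegfa, the hypoxia-induced angiogenic factor, or 0.994% of members and 0.247% of all WT sites. All 8 had H3K36me2 in each WT list, where 59.6% of all members did. Among KDM2A and the other H3K36 enzymes only Nsd1, an H3K36 methyltransferase gene, had a member, and H3K36me2 touched it in WT replicate 1 and KO replicate 1.

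Transfer RNA genes, which RNA polymerase III transcribes and which GENCODE M21 did not count as genes here, lay in 10 members. These 10 were 1.24% of members, where 0.574% of all WT sites held such a gene. All WT sites held 145 of the 386 transfer RNA genes that RefSeq places on chromosomes 1 to 19, 71 of them at promoter sites. The 10 members held 20 of the 386. Of these members 5 had a CpG island and 8 had KDM2A in all 3 WT lists, where 7.83% and 37.4% of all members did. KDM2A was present at 6, 6 and 8 of them in KO, where 34.9%, 29.2% and 47.5% of all members had it. H3K36me2 touched 4, 3 and 4 in WT and 3, 0 and 0 in KO, and covered 8.14%, 6.63% and 20.1% of their bases in WT, where it touched 72.2% to 75.03% of all members and covered 59.1% to 60.8% of their bases. The member at chr1:171101749-171103710, 11188 bp from the nearest TSS, held 4 of the genes, and its folds were 3.24, 2.66 and 3.19 in WT and 2.89, 3.40 and 3.39 in KO. The RefSeq gene n-TDgtc5 within it, a transfer RNA gene for aspartate, is shown on the plus strand in capitals with 40 bases of flank on each side.

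n-TDgtc5, chr1:171102331-171102482: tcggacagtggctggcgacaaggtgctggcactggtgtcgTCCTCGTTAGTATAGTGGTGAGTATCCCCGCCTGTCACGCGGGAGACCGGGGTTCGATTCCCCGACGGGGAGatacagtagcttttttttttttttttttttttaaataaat

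Elements that RefSeq lists as functional overlapped 13 members, and 12 of these members touched an entry of the VISTA catalogue of enhancers tested in mouse embryos. The other classes of site were not searched for such elements. Of the 13, 10 had KDM2A in all 3 WT lists and 9 in at least 2 KO lists, where 37.4% and 34.8% of all members did. A pair of them touched the same element near Btg2, an anti-proliferative gene, and the one at chr1:134060419-134061850 had folds of 3.51, 2.90 and 2.70 in WT and 3.26, 2.91 and 3.26 in KO. The other, chr1:134062912-134068329, had 2.70, 3.36 and 3.31 in WT and 2.76, 3.36 and 3.43 in KO.

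Short motifs were counted in the 500 bp around each centre, on both strands, as a description. The core letters of CTCF, the insulator protein, CAGNGGGC, were present at 11.7% of members, 12.4% of intragenic distal sites, 17.3% of promoter sites and 4.13% of the intergenic windows. E-box letters CACCTG were present at 37.4% of members and 24.3% of windows, TGANTCA at 17.8% and 14.6%, and the Runx letters TGTGGTT at 13.9% and 10.8%. The octamer ATGCAAAT was present at 2.48% of members and 5.10% of windows. NF-kB letters GGANTTTCC were present at 2.98% and 1.54%, and the HIF letters TACGTG at 5.84% and 3.65%. The STAT motif, by name alone, was present at 13.4% of members and 14.8% of windows, PU.1 letters GAGGAAGT at 4.72% and 3.01%, NRF1 letters GCGCATGCG at 0.248% and 0.0505%, and YY1 letters AAGATGGCG at 0.248% and 0.589%. GC content differed between members and windows and was not matched. At the 94 members with the CTCF letters, KDM2A was present in at least 2 KO lists at 36.2% and H3K36me2 in all 3 WT lists at 61.7%, against 34.6% and 59.4% at the other 711.

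A few members lay beside gaps or in repeats. Within 10 kb of an assembly gap there were 14 members, with a median mean WT fold of 2.07. The lowest fold of all was at chr11:3100522-3102992, 521 bp from a gap, with 1.39, 1.38 and 1.29 in WT, no peak in KO replicate 1, and 1.43 and 1.49 in KO replicates 2 and 3. The member farthest from any GENCODE M21 TSS, at 237417 bp, was chr6:27205564-27207507, which lay within 2 kb of a RefSeq TSS. It had folds of 2.69 in WT replicates 1 and 3, no KO peak and no H3K36me2. The widest member, 8267 bp, lay 22.7 kb upstream of Ptma, a prothymosin gene, and had folds of 3.18, 3.30 and 4.16 in WT and 3.61, 2.80 and 3.13 in KO. H3K36me2 covered 100%, 85.5% and 81.5% of it in WT and 81.5%, 33.2% and 24.2% in KO.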

How the data were processed

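KDM2A and H3K36me2 ChIP-seq gave 12 peak lists. Input libraries were not analysed on their own. Fixation was with EGS and then formaldehyde. Per the submitters' processing notes and the study's methods, the authors mapped reads by BWA (build GRCm38), and MACS2 called broad peaks separately for each library. The deposited fold is the authors' ratio over local control, not normalized between libraries. Each deposited list further holds a −log10 p-value and a −log10 q-value, which served for a stricter threshold of 2, besides a score that was not used. The lists hold peaks and not reads, which leaves depth unknown. No interval for a single library can be given, and a shallower library may hold fewer peaks.

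Positions were compared with GENCODE M21 (55450 genes) and with RefSeq on the same build. CpG islands were computed from repeat-masked GRCm38.p6 with a score of 17 for a CpG and -1 for any other base, over 200 bp, at least 50% GC and an observed over expected ratio above 0.6, which gave 15703 islands. Overlap of 1 bp counted as shared. The library was the unit of replication. Nothing in the labels says whether same-numbered WT and KO libraries share a litter, day or batch, or whether each library is a separate animal. The p-values therefore measure the spread between these libraries. Single values were compared with two-sided exact permutation or sign-flip tests. Log2 fold, centred on each library's median, went into limma (version 3.58.1, R 4.3.3) with a trended eBayes fit (Benjamini-Hochberg adjustment, threshold 0.05). This test was first tested on simulated data. The rest ran under Python 3.11.15 (scipy 1.17.1, pandas 2.3.3, numpy 2.4.6, pysam 0.24.0).

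Members and gene lists were chosen with earlier results of these data known. Regions were named by rule: the strongest members in all 6 KDM2A lists, in WT lists only, and by H3K36me2 pattern, the widest, the farthest from a TSS, those at the 10 kb limit and those nearest to genes of the lists. The tandem repeat near Ankrd12, the Igha stretch, the transfer RNA genes, the RefSeq elements, the sites beside gaps, the gene counts and the site upstream of Fos were chosen after their values were seen. Some regions that the rules name are not reported here. Alternatives were the number of WT lists, the distance, coding genes only, a stricter q, equal numbers of peaks, an overlap of 50%, leaving out each library, the replicate block, rank or mean fold, division by intergenic coverage, an island over 20% of the member and the sexes apart. Chosen after seeing the data were the members without those at RefSeq genes, TSS or transfer RNA genes, without those near gaps or in repeats, and with or without islands, besides the tests of H3K36me2 between classes and around centres.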

Additional observations from a re-analysis of the deposited data

How the results depend on the processing

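The number of members moved with the rule, to 301 with a peak required in 3 of 3 WT lists, 1294 over 5 kb and 342 over 20 kb from any TSS, 1553 with protein-coding genes only, 281 with −log10 q of at least 2 and 402 with equal numbers of peaks per list. Leaving out libraries gave between 419 and 805 members, with 419 without WT replicate 1, 502 without WT replicate 2 and 469 without WT replicate 3. The CpG island share of members, 7.83%, was 15.0% with 3 of 3 WT lists, 14.2% with coding genes only, 16.4% with the stricter q, 12.9% with equal numbers of peaks, 5.96% with an island over at least 20% of the member and 5.84% without members in a RefSeq gene, near a RefSeq TSS or at a transfer RNA gene, the last chosen after seeing the data, and 7.83% to 11.5% without each library in turn. The excess of the held-out WT list, 16.9 points, was 3.18 with equal numbers of peaks and 12.7 to 22.0 without each library in turn, the lowest when KO replicate 2 was left out and the highest when KO replicate 3 was.

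The difference in intergenic distal peaks per list, -1288, turned to 29.3 with equal numbers of peaks (exact p = 0.5), and that of their share, -1.92 points, to 0.19 (exact p = 0.5). Leaving out a library gave -1642 to -1041 peaks and -2.75 to -1.27 points. The difference in H3K36me2 overlap, -24.5 points, turned to 7.63 when divided by the intergenic coverage of the same list, where the values were 19.6 in WT and 27.3 in KO (exact p = 0.1). This ratio sets members touched by at least 1 bp against bases covered, which are unlike measures, so no direction is read from it. The cause of the turn was not tested. Under that division coverage of member bases was 15.96 in WT and 15.3 in KO, a difference of -0.64 (exact p = 0.8) in place of one of -30.9 points. Without each library in turn the overlap difference was -33.8 to -19.1 and the coverage difference -39.3 to -26.3 points, largest without KO replicate 1, the male library. The detection differences in KO lists were -35.4 to -30.4 points against promoter sites and 6.41 to 10.1 against intragenic distal sites, and limma called 0 intervals, without each library in turn.

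Under the replicate block the mean differences were -24.5 points for overlap, -30.9 for coverage, -1288 for peaks and -1.92 for share. A balanced block cannot alter these means. Their exact sign-flip p was 0.25, the lowest possible with 3 pairs, so no call could change. With the block limma called 0 intervals. Same-numbered libraries did not deviate together, with correlations of -0.02 to 0.00 across intervals. Of 159 recomputed values, 135 were counted as kept. The criterion was direction and side of the 0.05 threshold, or staying within 1.5 times or the spread. Sign-flip tests over 3 lists cannot give p under 0.25, nor permutation tests of 3 against 3 under 0.1. Values with these tests therefore could not change side, only direction. The median KDM2A change of member intervals was counted as kept under every alternative, without a criterion. Unknown depth limits every count of absent peaks.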
